A study of Mus musculus with 12 samples.

Results

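The oligoadenylate synthetase family was followed here through its 8 genes with usable counts, Oas1a, Oas1g, Oas1b, Oas1c, Oas2, Oas3, Oasl1 and Oasl2, which were taken by gene symbol from a count table of 55202 mouse genes. All 8 also had a row in the authors' comparison table, which lists 37164 genes. The libraries came from macrophages sorted as CD45+ CD11b+ F4/80+ cells out of tumors (tumor-associated macrophages, TAM). There were 6 libraries labelled DMBA3-4 TAM, from tumors of a PyMt breast cancer clone exposed to the carcinogen DMBA, and 6 labelled DMSO3-1 TAM, from tumors of a clone exposed to the solvent DMSO. All 12 libraries came from Rag1-/- mice, which lack T and B cells, and the age of the mice was not given. The study's methods describe the mice that received breast cancer cells as female and of the C57BL/6 background. PyMt marks a mammary tumor line driven by a viral oncogene under the MMTV promoter. DMBA3-4 and DMSO3-1 were each a single clone, so a difference between clones and a difference between exposures cannot be told apart. No source ties a library to its own animal, so every p-value reflects library-to-library spread, and part of that spread could be technical.

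Oligoadenylate synthetases bind double-stranded RNA in the cytosol and then join ATP into short 2-5A chains. These chains act as a second messenger of antiviral defense, which ends in the cutting of cellular and viral RNA and a halt of translation. The genes are classic targets of interferon: the receptor activates a transcription factor complex that binds an interferon-stimulated response element (ISRE) in their promoters. In the mouse the Oas1 gene has been copied many times, and several copies, among them Oas1c, have lost the enzyme activity. Oas1b is cut short by a stop codon in common laboratory strains, which leaves them open to flaviviruses. The Oasl proteins carry ubiquitin-like domains, and in mice Oasl2 is an active synthetase whereas Oasl1 is not.

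All 8 genes lie on chromosome 5 in 2 groups (GENCODE M21 annotation, build GRCm38). The Oas cluster runs over 191.3 kb at chr5:120730333-120921652 and holds 10 genes, 6 of the 8 described here and 4 Oas1 copies with hardly any counts. The Oasl pair spans 41.0 kb at chr5:114896936-114937915. Oas1c (minus strand) and Oas1b (plus strand) stand head to head with 120 bases between their starts, and Oas1b is annotated as a polymorphic pseudogene. RefSeq promoter windows (GRCm38.p6, 250 bases before and 50 after the start) were at hand for 6 of the 8 genes; Oas2 and Oas1b had no entry. The ISRE core GAAANNGAAA, searched on both strands, was in 4 of these 6 windows, and 3.44% of 32851 mouse windows held it. The shorter GAS motif TTCNNNGAA, an element of the interferon gamma response, was in 1 window, that of Oas1a, and 8.3% of all windows held it. A match describes the letters and does not show binding. The stretches around the matches are printed 5′ to 3′ along each gene's own strand, with the matched bases in capitals. They show which of the windows held the core and how it was placed. An element outside a window, or a variant of the core, would be missed. For Oasl2 and Oasl1, which had no match, the last 60 bases before the start are shown.
Oas1a, chr5:120907526-120907570, minus strand: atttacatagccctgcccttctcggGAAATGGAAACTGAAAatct
Oas1g, chr5:120887614-120887656, minus strand: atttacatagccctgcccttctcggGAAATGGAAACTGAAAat
Oas1c, chr5:120812588-120812634, minus strand: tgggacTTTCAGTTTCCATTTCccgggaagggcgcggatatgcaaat
Oas3, chr5:120777700-120777759, minus strand: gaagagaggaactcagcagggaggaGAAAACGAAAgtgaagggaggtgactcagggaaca
Oasl2, chr5:114896874-114896933, plus strand: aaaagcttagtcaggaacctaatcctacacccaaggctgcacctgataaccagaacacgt
Oasl1, chr5:114923180-114923239, plus strand: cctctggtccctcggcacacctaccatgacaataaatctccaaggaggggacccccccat

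The Oas1a and Oas1g stretches read alike, and the longest run that both windows shared was 73 bases. In Oas1a, Oas1g and Oas1c the capitals are 2 overlapping matches, which share 4 bases. Those of Oas1c lay on the other strand, in the gap between the starts of Oas1c and Oas1b, so they face Oas1b in the forward direction. Oas3 had a single match, whose first base lay 75 bases before the start.

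Library totals were 3040452 to 4632817 counts in DMBA3-4 TAM and 2752005 to 3978901 counts in DMSO3-1 TAM. Of the tested genes, 6918 of 11511 passed an adjusted p of 0.05 (edgeR quasi-likelihood test, Benjamini-Hochberg), 3445 of them higher and 3473 lower in DMBA3-4 TAM. The genes that define the sorted cells were close to 0: Ptprc, which encodes CD45, had 0 to 7 counts in DMBA3-4 TAM and 0 to 2 in DMSO3-1 TAM, Itgam (CD11b) had 0 to 3 and 0 to 2, and Adgre1 (F4/80) had 0 to 3 and 0 to 2. The whole list of 15 macrophage markers summed to 0.00726% to 0.0106% of counts in DMBA3-4 TAM and 0.00685% to 0.00915% in DMSO3-1 TAM, most of it Mertk and Cd14. Epithelial markers, nearly all Krt8 and Krt18, summed to 0.152% to 0.215% and 0.102% to 0.176%, with Epcam at 0 counts in every library. Other epithelial markers went the other way, Cdh1 having 0 to 3 counts in DMBA3-4 TAM and 12 to 24 in DMSO3-1 TAM and Cldn3 having 0 to 55 and 70 to 105. Fibroblast markers summed to 0.143% to 0.224% and 0.203% to 0.268%, but single ones separated the groups in both directions: Lum had 182 to 488 and 29 to 88 counts, Fap 26 to 119 and 0 to 11, and Pdgfrb 756 to 1479 and 1737 to 3359. Endothelial markers were scarce and did not overlap, at 0% to 0.000173% and 0.000251% to 0.00103%. The labelled cell type is therefore not borne out by its defining markers, and the groups are named by their labels throughout. The summed dendritic markers were 1075 to 2308 counts in DMBA3-4 TAM and 86 to 209 in DMSO3-1 TAM. Bst2, itself a target of interferon, made up 1040 to 2259 and 64 to 145 of them, while Siglech was at 0 counts in all libraries. The part of these cell markers in the results was not tested.

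Replicate 5 of DMBA3-4 TAM stood apart. Cldn3, a tight-junction claudin, had 55 counts in it, 0 counts in the other 5 DMBA3-4 libraries and 70 to 105 counts in the DMSO3-1 libraries. In all, 5 genes were at 0 counts in those other 5 libraries and at 10 or more CPM (counts scaled to the effective library total) in every DMSO3-1 library, and in replicate 5 they summed to 39.6% of the DMSO3-1 mean. On the first principal component this library lay at 32.4, against 47.4 to 70.1 for the others of its group. Replicates 1 and 6 of DMSO3-1 TAM also lay apart there, at -40.7 and -41.1, against -69.3 to -62.0. Values without replicate 5 are given beside each gene.

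All 8 oligoadenylate synthetase genes were higher in DMBA3-4 TAM by edgeR, where 29.9% of all tested genes were higher, and for all 8 the lowest DMBA3-4 library was above the highest DMSO3-1 library, as for 17.0% of tested genes in that direction. The 8 genes summed to 711 to 1326 counts per library (median 1084.5) in DMBA3-4 TAM and to 30 to 54 counts (median 38) in DMSO3-1 TAM. Their median log2 fold change was 4.15, against 0.00 over all tested genes. These shares are a description, since all 8 genes passed the filter on low counts through the DMBA3-4 libraries, where they were high. In bulk libraries, fewer cells of a type and less RNA per cell cannot be told apart.

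**Figure D1:**
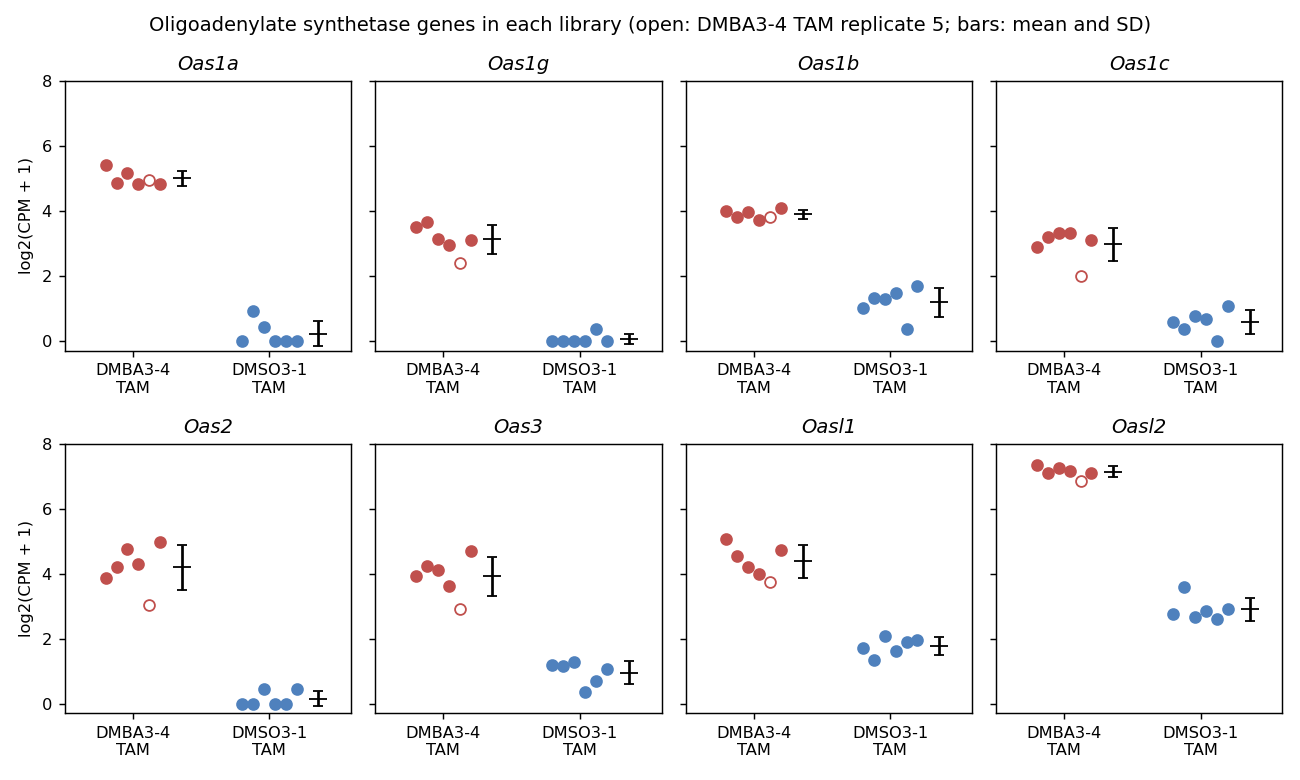
Level of each gene in each library as log2(CPM + 1), with DMBA3-4 TAM at the left and DMSO3-1 TAM at the right of every panel, open circles for DMBA3-4 replicate 5 and bars for the mean and SD of 6 libraries. In every panel the lowest DMBA3-4 library lies above the highest DMSO3-1 library, and replicate 5 is the lowest of its group for Oas1g, Oas1c, Oas2, Oas3, Oasl1 and Oasl2.

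Oas1a and Oas1g, the 2 active synthetases of the Oas1 group in this set, were clearly expressed in DMBA3-4 TAM and nearly silent in DMSO3-1 TAM. Oas1a had 168, 118, 167, 81, 112 and 112 counts in DMBA3-4 TAM replicates 1 to 6, against 0, 3, 1, 0, 0 and 0 in DMSO3-1 TAM. Its level was 31.7 ± 5.57 CPM in DMBA3-4 TAM and 0.212 ± 0.372 CPM in DMSO3-1 TAM (SD, n = 6 each). The log2 fold change was 7.05 (standard error 0.42; edgeR adjusted p = 2.08e-09). Oas1a was even within DMBA3-4 TAM, and replicate 5, which was low for most of the family, was at 30.2 CPM in the middle of its group.

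Oas1g had 42, 48, 37, 20, 16 and 31 counts in DMBA3-4 TAM, against 0, 0, 0, 0, 1 and 0 in DMSO3-1 TAM. Its level was 8.06 ± 2.58 CPM and 0.0504 ± 0.123 CPM in turn, with a log2 fold change of 6.56 (0.55; edgeR adjusted p = 1.26e-07). Since both genes were almost at 0 in DMSO3-1 TAM, the fitted fold changes depend on how the fit treats zero counts. The ratio of pooled counts was 156 for Oas1a (95% exact interval 60.6 to 574) and 160 for Oas1g (28.3 to 6337), and these intervals cover counting error only. The transcripts also overlap in sequence: 57.6% of the 50-base words of Oas1a occur in Oas1g and 45.2% of those of Oas1g in Oas1a, so reads could be given to either, and the split between the pair is uncertain. Summed into 1 gene, the pair had 101 to 210 counts in DMBA3-4 TAM and 0 to 3 in DMSO3-1 TAM, with a log2 fold change of 7.09 (0.38; edgeR adjusted p = 5.04e-10). Without DMBA3-4 replicate 5 the log2 fold changes were 7.06 for Oas1a and 6.69 for Oas1g. Single DMSO3-1 libraries moved them more: without replicate 2, which held 3 of that group's counts of Oas1a, Oas1a was at 8.36, and without replicate 5, which held the 1 count of Oas1g, Oas1g was at 7.88.

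Oas1b and Oas1c, the head-to-head pair, rose less steeply, and both kept a few counts in most DMSO3-1 libraries. Oas1b, the gene behind flavivirus resistance where it is intact, had 61, 54, 69, 36, 49 and 65 counts in DMBA3-4 TAM, against 4, 5, 4, 6, 1 and 6 in DMSO3-1 TAM. At 14.0 ± 1.48 CPM and 1.37 ± 0.653 CPM, its log2 fold change was 3.35 (0.29; edgeR adjusted p = 1.44e-07). Within DMBA3-4 TAM its coefficient of variation was 10.6%, the lowest of the 8 genes, although without replicate 5 it was 11.3% and that of Oasl2 was lower, at 7.87%. Oas1c, a copy without synthetase activity, had 26, 34, 43, 27, 11 and 31 counts in DMBA3-4 TAM, against 2, 1, 2, 2, 0 and 3 in DMSO3-1 TAM. Its levels were 7.22 ± 2.31 CPM and 0.535 ± 0.372 CPM, and its log2 fold change was 3.72 (0.43; edgeR adjusted p = 3.67e-06). Here replicate 5, at 2.97 CPM, lay well under the other 5 DMBA3-4 libraries, and without it the coefficient of variation was 13.8% in place of 32.0% and the log2 fold change 3.88. Without replicate 5 that of Oas1b was 3.37. An antisense gene, Gm43069, overlaps Oas1c over 5430 bases and had at most 1 count in any library. No source states whether reads were counted by strand. The remaining Oas1 copies in the cluster stayed silent in both groups: Oas1e and Oas1f had 0 counts in all 12 libraries, Oas1d had 1 count in 1 DMBA3-4 library, and Oas1h had 1 count in 1 library of each group.

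Oas2 and Oas3 encode the larger synthetases, built from repeated catalytic units. Oas2 had 55, 73, 125, 56, 27 and 122 counts in DMBA3-4 TAM, against 0, 0, 1, 0, 0 and 1 in DMSO3-1 TAM. It thus joined Oas1a and Oas1g among the genes that were almost absent from DMSO3-1 TAM. Its level was 19.0 ± 8.35 CPM in DMBA3-4 TAM and 0.121 ± 0.187 CPM in DMSO3-1 TAM, with a log2 fold change of 7.11 (0.58; edgeR adjusted p = 8.81e-08) and a pooled ratio of 188 (95% exact interval 51.9 to 1561). Oas3 had 58, 75, 77, 34, 24 and 100 counts in DMBA3-4 TAM, against 5, 4, 4, 1, 2 and 3 in DMSO3-1 TAM. At 15.2 ± 6.19 CPM and 0.984 ± 0.439 CPM its log2 fold change was 3.92 (0.38; edgeR adjusted p = 5.76e-07). These 2 neighbors, which lie next to each other in the cluster, had the highest coefficients of variation within DMBA3-4 TAM, 44.1% for Oas2 and 40.7% for Oas3. Without replicate 5 these were 32.0% and 29.5%, and Oasl1, at 31.1%, lay between them. In both, replicate 6 was the highest library (30.2 and 24.7 CPM) and replicate 5 the lowest (7.28 and 6.47 CPM). Without replicate 5 the log2 fold changes were 7.28 and 4.08. The annotated transcript Gm43068 lies opposite Oas2 over 1273 bases and had at most 1 count in any library.

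The Oasl pair held both the gene with the most counts in the family, not corrected for length, and the one with the smallest fold change. Oasl2 had 656, 565, 726, 426, 426 and 545 counts in DMBA3-4 TAM, against 23, 36, 15, 21, 17 and 18 in DMSO3-1 TAM. Its level was 141 ± 16.2 CPM in DMBA3-4 TAM and 6.67 ± 2.16 CPM in DMSO3-1 TAM, with a log2 fold change of 4.39 (0.18; edgeR adjusted p = 2.52e-11), the smallest adjusted p of the 8 genes. Replicate 2 of DMSO3-1 TAM was at 10.95 CPM and the other 5 libraries of that group at 5.14 to 6.59 CPM. Oasl1, which in mice holds back translation of the interferon regulator Irf7, had 132, 93, 82, 44, 46 and 103 counts in DMBA3-4 TAM, against 9, 5, 9, 7, 9 and 8 in DMSO3-1 TAM. Its levels of 20.8 ± 7.49 CPM and 2.45 ± 0.623 CPM gave a log2 fold change of 3.08 (0.28; edgeR adjusted p = 3.38e-07). Oasl1 was unevenly expressed in DMBA3-4 TAM, by 2.62 times between replicate 5 and replicate 1. Without replicate 5 the log2 fold changes were 4.45 for Oasl2 and 3.20 for Oasl1. Gm13822, antisense to Oasl1 over 38 bases, had 1 to 3 counts in DMBA3-4 TAM and 0 in DMSO3-1 TAM.

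**Figure D2:**
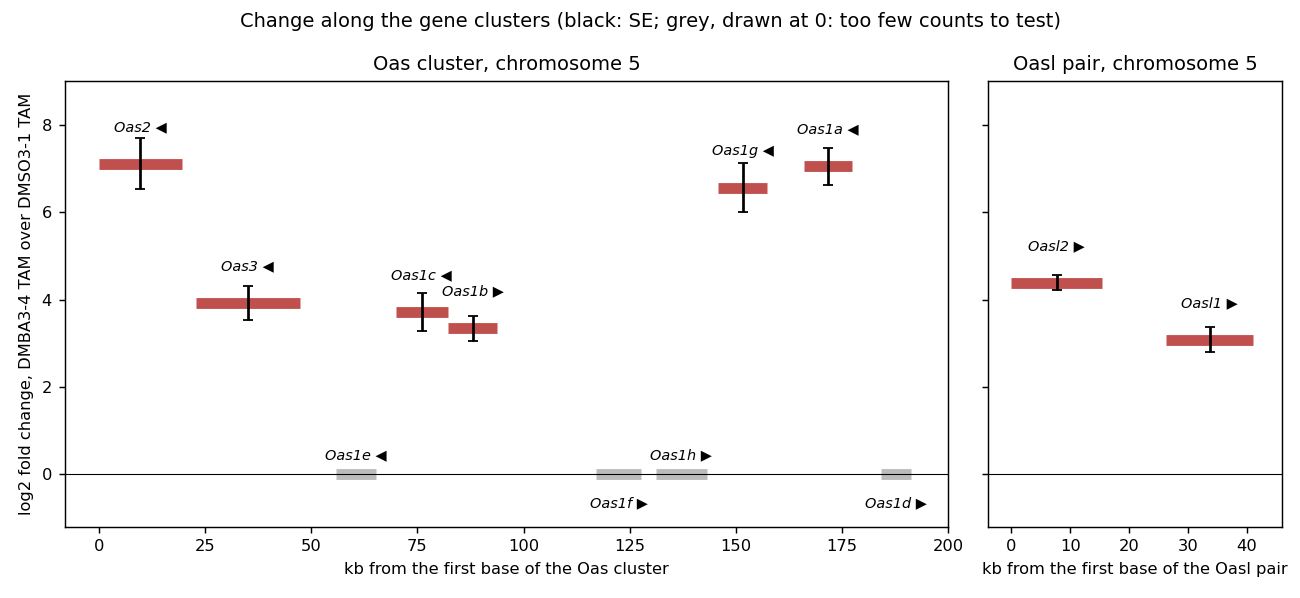
Log2 fold change of DMBA3-4 TAM over DMSO3-1 TAM against position in kb from the first base of the Oas cluster (left) and of the Oasl pair (right), with bar width for gene span, arrowheads for strand, black error bars for the standard error and grey bars, drawn at 0, for genes with too few counts to test. Oas2, Oas1g and Oas1a, at both ends of the cluster, have fold changes of 6.56 to 7.11, while Oas3, Oas1c and Oas1b between them have 3.35 to 3.92.

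Set in order, the edgeR log2 fold changes were an upper set of Oas2 (7.11), Oas1a (7.05) and Oas1g (6.56), and a lower set of Oasl2 (4.39), Oas3 (3.92), Oas1c (3.72), Oas1b (3.35) and Oasl1 (3.08). Within each set, neighbors in this order differed by less than the sum of their standard errors, whereas Oas1g and Oasl2 were 2.17 apart. These standard errors were derived from the test statistic and are narrower than counting error for the upper set. For Oas1g the 95% exact interval of the pooled ratio was 28.3 to 6337. The standard errors therefore settle neither the order nor the gap. The gap depends on the fit: limma-voom gave 6.94 for Oas1a, 6.30 for Oas2, 5.41 for Oas1g and 4.41 for Oasl2, so that Oas1g lay about as far below Oas2 as above Oasl2. The upper set is the set whose DMSO3-1 counts were nearly all 0, so its size rests on 1 to 4 pooled counts in that group. The silent genes Oas1e, Oas1f, Oas1h and Oas1d lay between and beside the active ones. The genes next to the cluster were also close to 0, Dtx1, Rasal1 and Rph3a having 0 or 1 count in every library. Of the 3 nearest tested genes on each side of the cluster, Ddx54 (-0.74), Ptpn11 (-0.83) and Hectd4 (-0.59) were lower, Iqcd (0.92) and Rpl6 (0.62) were higher, and Rita1 (0.19, edgeR adjusted p = 0.430) was not called. Around the Oasl pair, 2210016L21Rik (0.83), 1500011B03Rik (0.72), Ankrd13a (1.33) and Sppl3 (1.45) were higher, Git2 (-0.62) was lower and Rpl37rt (0.14, edgeR adjusted p = 0.450) was not called. These 12 neighboring genes, given as edgeR log2 fold changes, all moved less than any of the 8 family genes.

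Levels of different genes were compared per kilobase of exon (RPKM), because Oas3 and Oasl2 have much longer exons than Oas1a. In DMBA3-4 TAM, Oasl2 (22.0 ± 2.54 RPKM) and Oas1a (16.8 ± 2.96 RPKM) came first, with overlapping ranges. How reads that fit both Oas1a and Oas1g were counted is unknown, and some may have been lost. The levels of these genes, and so their places in the order, are uncertain. Oasl1 (7.97 ± 2.87), Oas1b (7.02 ± 0.744), Oas2 (4.26 ± 1.88), Oas1g (3.45 ± 1.10), Oas1c (3.003 ± 0.960) and Oas3 (2.15 ± 0.875) followed, and within this run each gene overlapped the next in its per-library range. In DMSO3-1 TAM the order of the means was different: Oasl2 (1.05 ± 0.340 RPKM) was first, then Oasl1 (0.940 ± 0.239) and Oas1b (0.688 ± 0.328). The per-library ranges of these genes overlapped, so their order is not resolved. Oas1a stood at 0.112 ± 0.197. Oas1a therefore was second in one group and far down in the other. The authors' comparison table gives a mean normalized count per gene over libraries that it lists under other names, so it is set beside these levels without a spread. Per kilobase the authors' mean was 192 for Oas1a, 117 for Oasl2, 95.8 for Oasl1, 88.8 for Oas2, 70.0 for Oas1g and 34.4 for Oas3, with 14.8 for Oas1b and 12.3 for Oas1c at the low end. Oas1a was first by that mean, and the copies that were silent here were also near 0 there, at 0.332 for Oas1d, 0.363 for Oas1e, 0.0655 for Oas1f and 0.542 for Oas1h as authors' mean.

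Whether the make-up of the family differed, and not only its total, was asked from each gene's share of the 8 genes' summed counts in each library, with 8 2-sided exact permutation tests of the group labels (smallest possible p = 0.00216, not adjusted). Oas1a took 12.5 ± 2.11% of the family's counts in DMBA3-4 TAM and 1.39 ± 2.32% in DMSO3-1 TAM, with no overlap between the groups (exact permutation p = 0.00216). Oas2 took 7.24 ± 2.76% and 0.890 ± 1.38%, also without overlap (exact permutation p = 0.00216). Both genes thus gained more than the family as a whole, which their fold changes from the same counts already show. In DMSO3-1 TAM they had only 4 and 2 pooled counts. The shares in a library add up to the whole, so rises of these genes by themselves lower the shares of the others. Oasl1 had the smaller share in DMBA3-4 TAM, at 7.97 ± 2.03%, against 20.8 ± 6.92% in DMSO3-1 TAM (exact permutation p = 0.00649). Oas1b did too, at 5.52 ± 0.743% and 10.8 ± 4.71% (exact permutation p = 0.0195). Oas1g had 3.11 ± 0.804% and 0.556 ± 1.36% (exact permutation p = 0.0108), but as a share of the 4 Oas1 genes alone it did not pass (exact permutation p = 0.697), and its DMSO3-1 value came from 1 count. Oas3 and Oas1c had shares of 5.80% and 2.78% in DMBA3-4 TAM, against 7.87% and 4.19% in DMSO3-1 TAM (exact permutation p = 0.214 and 0.264). Those 2 values turned on single libraries, since p was 0.0411 for Oas3 without DMSO3-1 replicate 4 and 0.0346 for Oas1c without DMSO3-1 replicate 5 by the same exact permutation test. Oasl2 made up 55.1 ± 3.90% and 53.6 ± 8.81% of the counts (exact permutation p = 0.712), so more than any other gene in both groups. The DMSO3-1 shares are coarse, because each rests on 30 to 54 counts.

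**Figure D3:**
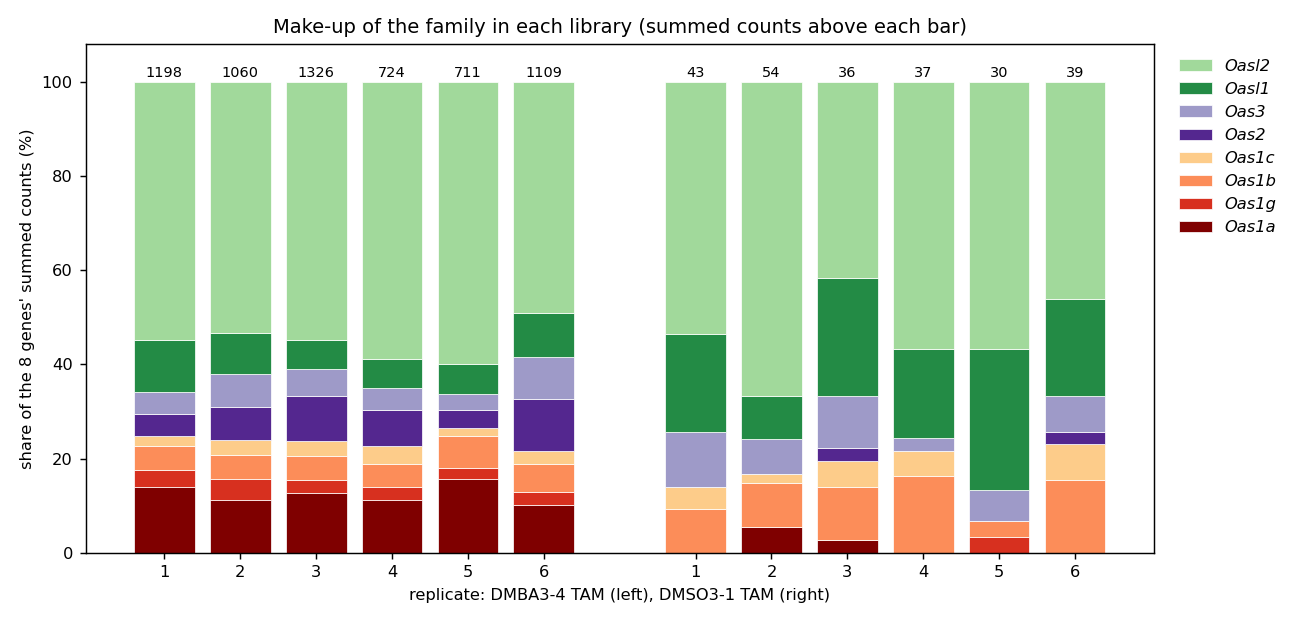
Share of each gene (%) in the summed counts of the 8 genes, stacked for each library, with DMBA3-4 TAM replicates 1 to 6 at the left, DMSO3-1 TAM replicates 1 to 6 at the right and the summed counts above each bar. Oas1a and Oas2 are present in every DMBA3-4 bar and in few DMSO3-1 bars, while Oasl2 is the largest block of all 12.

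The genes that oppose the 2-5A pathway were not higher. Abce1, which recycles ribosomes and is known as an inhibitor of the pathway, fell to 83.1 ± 20.6 CPM in DMBA3-4 TAM, against 131 ± 17.6 CPM in DMSO3-1 TAM (log2 fold change -0.66, standard error 0.15; edgeR adjusted p = 0.00134). Pde12, a phosphodiesterase that degrades 2-5A, was at 28.3 ± 4.64 and 41.7 ± 4.95 CPM (-0.56, 0.14; edgeR adjusted p = 0.00298). Of tested genes, 30.2% were lower by edgeR. Akap7, which also has 2-5A phosphodiesterase activity, was at 11.1 ± 2.39 and 11.6 ± 4.30 CPM and was not called (edgeR adjusted p = 0.832).

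Among 11 other genes of double-stranded RNA sensing, 7 were higher by edgeR, the other 4 were not called and the median log2 fold change was 0.70, where 29.9% of all tested genes were higher and their median was 0.00. Dhx58, which encodes the RNA helicase LGP2 (4.11, standard error 0.29), Ifih1, which encodes the sensor MDA5 (3.25, 0.22), and Zbp1, a sensor of Z-form nucleic acid (3.04, 0.27), had the largest changes with no overlap between groups. Cgas, the DNA sensor whose fold resembles that of the synthetases, was not called (0.47, edgeR adjusted p = 0.452), and its adaptor Tmem173, which encodes STING, was higher by 0.95 (0.09; edgeR adjusted p = 3.23e-07). Of 18 tested genes listed around interferon signaling, 7 were higher and 4 lower by edgeR, with a median of -0.01. Over all tested genes 29.9% were higher and 30.2% lower. The list mixes receptors of several types, kinases, transcription factors and brakes, so its median does not describe a single pathway. The 7 higher genes included Usp18, which removes ISG15 and dampens the receptor (5.38, 0.29), and Irf7, the regulator of interferon genes (4.07, 0.15). Neither overlapped between groups.

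No interferon gene reached enough counts for the edgeR fit, and 14 of 21 were at 0 counts in all 12 libraries. Ifnb1, named after its values were seen, had 30 pooled counts in DMBA3-4 TAM, with 0 to 10 per library, and 0 counts in every DMSO3-1 library. Of the IFIT family of RNA-binding proteins, Ifit1 (4.86), Ifit3 (6.38) and Ifit3b (6.73) were higher, and Ifit2 (-0.41, edgeR adjusted p = 0.0601) was not called. Ifit1bl1 and Ifit1bl2 had too few counts for the fit, with 154 and 13 pooled counts in DMBA3-4 TAM and 2 and 0 in DMSO3-1 TAM. Of 11 guanylate-binding proteins, all 5 that were tested were higher, led by Gbp6 (6.40), Gbp3 (4.29) and Gbp2 (3.41). Over all tested genes 29.9% were higher. Gbp6 had 0 to 1 counts in DMSO3-1 TAM and 18 to 69 in DMBA3-4 TAM. It thus passed the filter on low counts only through DMBA3-4 TAM, and the calls in both families are a description. Summed per library, the 8 synthetase genes gave 192 to 295 CPM in DMBA3-4 TAM and 9.07 to 16.4 CPM in DMSO3-1 TAM, the IFIT family 423 to 650 and 23.6 to 48.7 CPM, and the guanylate-binding proteins 321 to 491 and 38.1 to 58.4 CPM. The log2 ratio of synthetases to guanylate-binding proteins was -1.01 to -0.54 in DMBA3-4 TAM, above the -2.69 to -1.23 in DMSO3-1 TAM, whereas the ratio to the IFIT family overlapped, at -1.42 to -0.69 and -1.91 to -1.18.

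**Figure D4:**
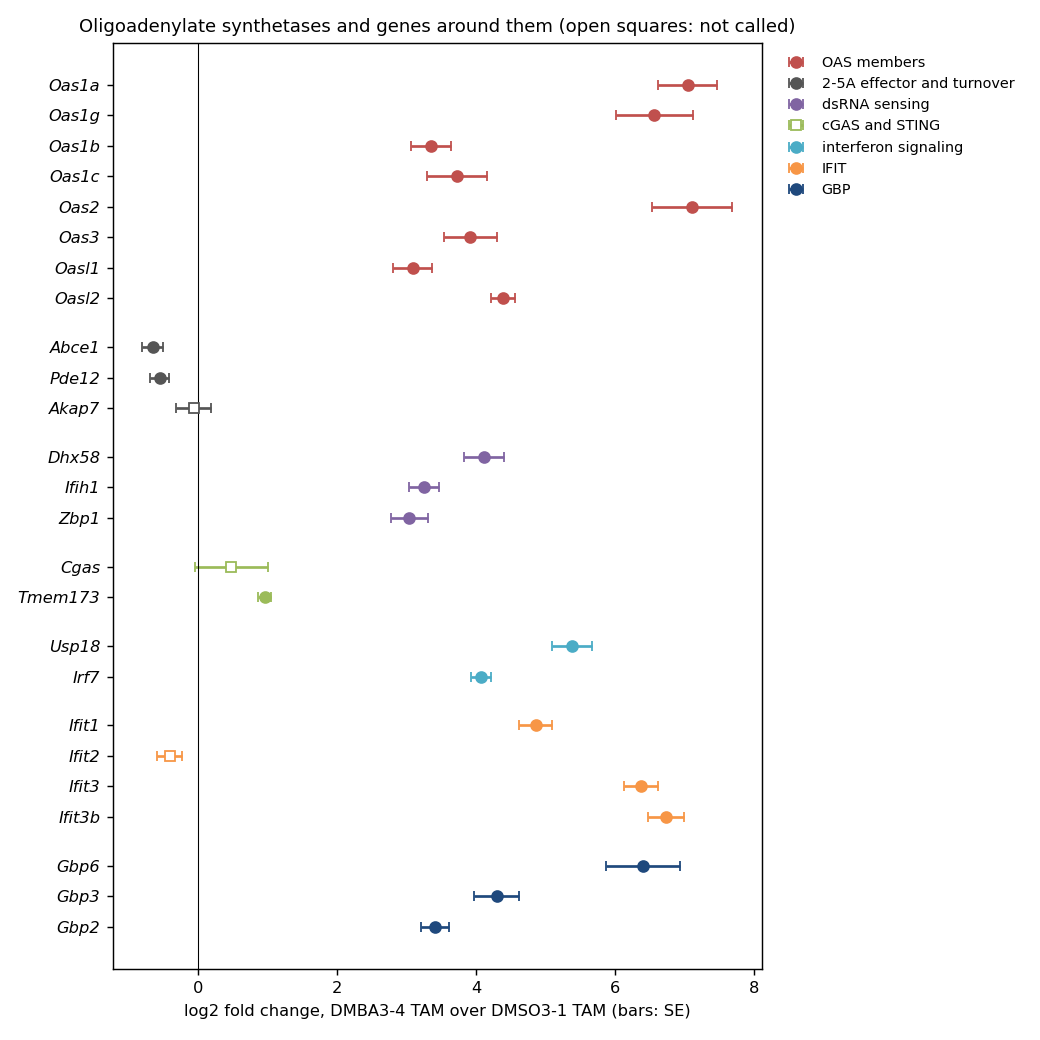
Log2 fold change of DMBA3-4 TAM over DMSO3-1 TAM with its standard error for the 8 synthetase genes and the named genes around them, colored by list, with filled circles for genes that passed an adjusted p of 0.05 and open squares for those that did not. All 8 synthetase genes lie between 3.08 and 7.11, Abce1 and Pde12 lie below 0, and Akap7, Cgas and Ifit2 are open.

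The genes whose profile over the 12 libraries was most like the mean profile of the family, by root-mean-square difference of centered log2(CPM + 1), included Wnk2 (0.19), Ptpru (0.21), Apol6 (0.24) and Nradd (0.24). Each of these was nearer to the family's mean than any member was, Oas1g being the nearest member at 0.29 and Oas1a the farthest at 0.78. The non-members were picked as the smallest distances among 11511 tested genes, so their greater nearness follows largely from that choice. Their mean levels in DMBA3-4 TAM were 9.04 CPM for Wnk2, 9.75 for Ptpru, 13.1 for Apol6 and 13.1 for Nradd, and all had under 1 CPM in DMSO3-1 TAM. The members differed in size of change, and what set their distances apart was not tested. Within DMBA3-4 TAM they shared lower values in replicate 5. In that library the 8 genes lay at a median of 0.566 of their group's mean, from 0.384 to 0.954, and all 8 were under it, whereas the medians of the other 5 libraries were 0.860 to 1.11.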

How the data were processed

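According to the study's methods, TAMs were sorted from tumors and sequenced as bulk libraries. The sources differ on preparation: the labels name column-purified RNA and a SMARTER kit, the study's methods name direct lysis and SmartSeq2. The authors deposited whole-number read counts per gene, made against mouse build GRCm38 (mm10) according to the submitters' processing notes. Aligner, counter and strand setting: not given in the sources used here, hence unknown. A deposited comparison table held the authors' results too, and its mean normalized count per gene (a signal averaged over libraries listed under other names) was used only as the authors' mean, while its fold changes and p-values were not used.

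Genes were tested with edgeR 4.0.16 (R 4.3.3; filterByExpr with a minimum count of 10, TMM scaling, robust quasi-likelihood fit on group, Benjamini-Hochberg over 11511 genes, threshold 0.05). The study's methods name limma; limma 3.58.1 and DESeq2 1.42.0 were alternatives, beside other scalings and filters, the replicate block and leaving out libraries. 19 entries without a gene name, 0.0893% to 0.128% of counts, were left out. The standard error of an edgeR log2 fold change was its size divided by the square root of the test's F value. CPM is relative to the TMM-scaled total, and RPKM divides it by the union of GENCODE M21 exons. Shares were tested as percentages by exact permutation of the group labels. Levels on the log2 scale had a pseudocount of 1 CPM. Library totals of 2752005 to 4632817 counts limit the precision at low levels. No pair of libraries within a group agreed within sampling noise. The fit was tested on simulated data.

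Replicate numbers 1 to 6 occur in both groups; same-numbered libraries did not deviate together, so no pairing was used. The 8 genes and all lists were chosen with earlier results of these data known. Named were all 8 genes, every gene of lists of up to 6 genes, the 3 largest changes among called genes without overlap in longer lists, the 3 nearest tested genes on each side of both clusters and the 5 genes most alike in profile. Some genes that this rule names are not reported here.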

Additional observations from a re-analysis of the deposited data

Results flagged for a closer look

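Of 34 sets of 6 libraries screened for a single library far from the rest, 3 were flagged, and chance flags about 5% of such sets. Oasl2 in DMSO3-1 TAM replicate 2 was at 10.95 CPM, while the other 5 libraries of that group were at 5.14 to 6.59 CPM. Oas1g in DMSO3-1 TAM replicate 5 was at 0.302 CPM and took 3.33% of the family's counts, both from 1 count, while the other 5 libraries of that group had 0 counts of Oas1g. A set with 5 libraries at 0 is flagged whatever the count in the other library. The Oas1g flags therefore cannot be set against the 5%.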

How the results depend on the processing

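All 8 synthetase genes stayed higher and past the threshold under each of 22 alternatives to the edgeR fit (DESeq2, limma-voom with and without library weights, other scalings and filters, the replicate block, and libraries left out). The number of genes called overall was 6481 to 8354, against 6918. With the replicate block, 6481 genes and all 8 synthetase genes were called; same-numbered libraries correlated at -0.16 to 0.13 in their deviations, and 1 of 6 DMBA3-4 libraries correlated best with its own number. The log2 fold changes spanned 6.53 to 8.36 for Oas1a, 5.41 to 7.88 for Oas1g and 6.26 to 7.66 for Oas2, the genes with hardly any DMSO3-1 counts, and 4.32 to 4.59 for Oasl2. The highest value of Oas1a came from leaving out DMSO3-1 replicate 2. The lowest value of Oas1g came from limma-voom and the highest from leaving out DMSO3-1 replicate 5. Without DMSO3-1 replicates 1 and 6, 7544 genes were called, and without DMBA3-4 replicate 5, 6871. With no filter on low counts, 5 IFIT and 8 guanylate-binding genes were called higher in place of 3 and 5. Of all 33387 genes in that fit, 4040 were called higher. A single IFIT gene was called lower with library weights in limma-voom and without DMSO3-1 replicate 2 or 5. The sum of Oas1a and Oas1g was an alternative chosen after seeing the data. The permutation test planned for synthetase genes with too few counts was not needed, because all 8 had enough.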
